A study of Mus musculus with 3 samples.

Results

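The core histone genes of the mouse histone clusters encode H2A, H2B, H3 and H4, and 51 of them gave at least 1 read in a set of 3 RNA-seq libraries of a macrophage line. They were taken by name from a deposited table of 46078 genes: symbols starting with Hist1h, Hist2h, Hist3h or Hist4h, without the linker histones (symbols starting with Hist1h1) and without symbols carrying the pseudogene mark -ps. Of 64 such symbols, 51 had a read in any library, and these 51 are called members here. They comprise 14 H2A, 15 H2B, 10 H3 and 12 H4 genes. By locus, 44 belong to Hist1, 5 to Hist2, 1 to Hist3 and 1 to Hist4, and GENCODE M21 places 44 on chromosome 13, 5 on chromosome 3, 1 on chromosome 11 and 1 on chromosome 6. Of the 51, 49 were matched to it by gene identifier, and the other 2, Hist1h2bh and Hist1h2bm, by symbol because their identifiers differ.

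The study treated RAW 264.7 cells, a mouse macrophage line started from an Abelson virus tumour, and compared RNA after cell damage with and without a gold nanomaterial. The control library came from cells labelled control. The HU library came from cells given 0.5 mM hydroxyurea (HU), and the third library from cells that received this HU dose together with gold nanocages; both treatments lasted 12 hours. All 3 cultures shared medium with 10% serum, antibiotics and passages 10 to 15, and the labels name no engineered allele. Each condition is 1 library of 1 cell line, so no test between conditions was possible, and every interval given here covers counting error only.

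Core histone proteins form the octamer that DNA wraps around, and a cell needs most of them while it copies its DNA in S phase. The messenger RNAs of the clustered genes are made mainly in S phase and are unusual among messenger RNAs in that most end in a conserved stem-loop instead of a poly(A) tail. The stem-loop is bound by SLBP, which guides the 3' cut and translation, and these RNAs are broken down quickly when DNA synthesis stops. Hydroxyurea blocks ribonucleotide reductase and so the supply of DNA precursors.

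The 3' ends of the members with the most reads are shown first, because poly(A) selection of RNA captures tailed messages and mostly loses those that end in the stem-loop. The sources used here do not say whether the RNA was selected by poly(A) tail. The stem-loop was searched in the GENCODE M21 transcripts (mm10) as a run of 16 bases, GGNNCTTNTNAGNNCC, whose first and last 6 bases pair. Capitals mark the stem-loop, and each line is 26 bases of the transcript, 5' to 3', in DNA letters.
Hist1h2be: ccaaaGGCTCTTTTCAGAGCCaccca
Hist1h2ae: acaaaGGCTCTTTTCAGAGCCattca
Hist1h3g: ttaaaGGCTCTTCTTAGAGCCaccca
Hist1h4i: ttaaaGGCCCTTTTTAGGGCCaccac
H2afx: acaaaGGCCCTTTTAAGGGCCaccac

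H2afx, a replacement histone gene outside the clusters, is shown because it carries the same element and is measured far more deeply. A stem-loop was found in 34 of the 51 members: 7 H2A, 8 H2B, 8 H3 and 11 H4. It was found in 65 of 58797 protein-coding transcripts, or 0.111%. Over all core histone symbols of the table, read or not, the form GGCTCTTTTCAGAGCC was the most frequent, in 23 genes of the H2A, H2B and H3 families. H4 genes mostly carried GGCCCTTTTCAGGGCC, in 7 genes. The letters of Hist1h3g were found in no other core histone gene, and those of Hist1h4i only there and in Hist2h4.

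Several annotated transcripts run on past the stem-loop and end with a poly(A) signal, AATAAA or ATTAAA in the last 50 bases. In the lines below capitals mark that signal in the 3' end of 4 of the most read members; each line is 30 bases.
Hist2h2be: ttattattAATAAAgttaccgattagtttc
Hist1h4i: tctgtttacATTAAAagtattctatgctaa
Hist1h2be: tgtgttccttATTAAAgcattcctgattga
Hist1h2ae: ccAATAAAtgggtcaatttttttcagattc

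After the stem-loop, the longest annotated transcript continued for 1861 bases in Hist1h2be, 330 in Hist1h4i, 151 in Hist1h2ae and 47 in Hist1h3g. Hist2h2be, an H2B gene with a transcript of 2620 bases, had no stem-loop match. Hist1h2bc, an H2B gene with a transcript of 1156 bases, had neither the stem-loop nor an ending poly(A) signal. The deposited exonic size was smaller than the longest transcript in Hist1h2ae (460 against 704 bases), Hist1h2bc (736 against 1156) and Hist1h3g (427 against 530). Their annotated ends may thus lie outside the counted exons, a limit also for the sums by transcript form. A poly(A) signal ended 12 members, of which 9 also carried a stem-loop. The same letters are common elsewhere: 50.2% of protein-coding transcripts held one in their last 50 bases.

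Reads of the members were few. Together they gave 369 reads in the control library, 295 in the HU library and 294 in the HU plus nanocage library, out of 14990564, 20057329 and 18644333 reads assigned to genes. Divided by those totals, 1 read is 0.0667, 0.0499 and 0.0536 CPM, the count scaled to the library total. A gene at 0 reads could have had up to 3 reads by counting alone, or 0.200, 0.150 and 0.161 CPM. The macrophage markers Lyz2, Csf1r, Adgre1, Cd68, Itgam and Fcgr1 were all present, 6 of 6 at a mean of 1 FPKM or more (fragments per kilobase and library size, a per-length level). Of 12 markers of fibroblasts, lymphocytes and granulocytes, none reached that mean. Cdkn1a, the p53 target that encodes the p21 inhibitor of cyclin-dependent kinases, stood at 62.96, 411.69 and 401.02 FPKM in the control, HU and HU plus nanocage libraries, far higher in both libraries with HU.

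The reads of the members were concentrated in few genes. Of 958 member reads, 727 (75.9%) fell in the 7 members with at least 20 reads over the 3 libraries, and those 7 are named with their values. The other 44 members had 18 reads at most, the median over all 51 members was 5 reads, and 18 members had 1 to 3 reads. The control library had 7 members at 0 reads, the HU library 14 and the HU plus nanocage library 13. Members at 1 FPKM or more numbered 7, 6 and 5 in the same order.

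**Figure D1:**
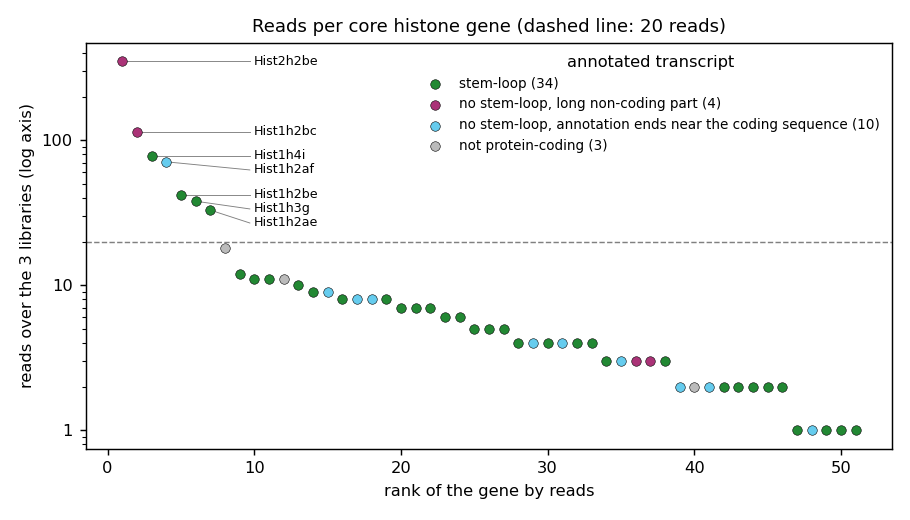
Reads over the 3 libraries (vertical, log axis) for the 51 core histone genes in order of reads (horizontal), coloured by the form of the annotated transcript. The 7 named genes lie above the dashed line at 20 reads, and the 44 others lie at 18 reads or fewer.

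The transcript forms were unevenly read. The 34 members with a stem-loop held 344 reads (35.9%), while 4 H2B members without the stem-loop and with a long non-coding part held 471 reads (49.2%). Members ending in a poly(A) signal, 12 of 51, held 540 reads (56.4%). A further 10 members had no stem-loop because the annotation stops close to the coding sequence, and held 112 reads. The remaining 3 members were rows that GENCODE lists as a pseudogene or a long non-coding RNA, with 31 reads.

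H2A and H2B form the dimers at the outside of the octamer, and the H2B genes gave the most reads. Hist2h2be (chr3:96221119-96223738, plus strand) had 110 control reads, 123 HU reads and 118 reads with nanocages, or 7.34, 6.13 and 6.33 CPM. It was the most read member in every library, and its 3 levels were close: the HU to control ratio was 0.836 (95% interval 0.641 to 1.09). Every 100-base stretch of its transcripts was unique among annotated transcripts. Per length it stood at 2.80, 2.34 and 2.42 FPKM, below 2 shorter members in the control library, Hist1h2af and Hist1h2bc.

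Hist1h2bc (chr13:23684199-23692908, plus strand), a second H2B gene, had 42, 30 and 42 reads in the control, HU and HU plus nanocage libraries, or 2.80, 1.5 and 2.25 CPM. It was lowest in HU, 1.87-fold below control (1.14 to 3.10), with the nanocage library in between. Per length its levels were 3.81, 2.03 and 3.06 FPKM.

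Hist1h2be (chr13:23583670-23621124, minus strand), the third H2B gene, had 22, 12 and 8 reads, or 1.47, 0.598 and 0.429 CPM in the same order. Control was highest, and HU was 2.45-fold lower (1.16 to 5.44). Its annotated exons share 496 bases with those of the linker histone gene Hist1h1e and 320 bases with Gm11398 on the same strand. Reads in those bases cannot be assigned to Hist1h2be alone. Of its 100-base stretches, 87.9% were unique among annotated transcripts.

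Hist1h2af (chr13:23533906-23534304, plus strand) encodes an H2A and had 51 control reads, 12 HU reads and 8 reads with nanocages, or 3.40, 0.598 and 0.429 CPM. Both treated libraries lay far below control: 5.69-fold lower in HU (2.99 to 11.7) and 7.93-fold lower in HU plus nanocages (3.74 to 19.3). Per length it was the highest member in the control library, at 8.53 FPKM, against 1.5 and 1.08 FPKM in the treated libraries. Only 20.7% of its 100-base stretches were unique among annotated transcripts, the lowest share of the 7 named members, and 141 bases of its exons lie opposite Gm44297. The sources used here name neither the counting's use of strand nor its treatment of reads shared by near-identical copies, so the value of this gene is uncertain.

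Hist1h2ae (chr13:23570517-23571220, minus strand), the other named H2A gene, had 15, 10 and 8 reads, or 1.00, 0.499 and 0.429 CPM from control to nanocages. Control was highest, but the HU to control ratio of 0.498 had an interval of 0.200 to 1.19. It shares 138 bases of exon with Gm44394 on the opposite strand.

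H3 and H4 form the central tetramer and were read less. Hist1h4i (chr13:22040636-22041362, minus strand), an H4 gene, had 27, 24 and 27 reads, or 1.80, 1.20 and 1.45 CPM, and 2.48, 1.65 and 1.99 FPKM. The libraries did not differ beyond counting error, at an HU to control ratio of 0.664 (0.367 to 1.20). Hist1h3g (chr13:23535422-23535951, plus strand), an H3 gene, had 14, 14 and 10 reads, or 0.934, 0.698 and 0.536 CPM. Its ratio was 0.747 (0.330 to 1.69), again within counting error.

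**Figure D2:**
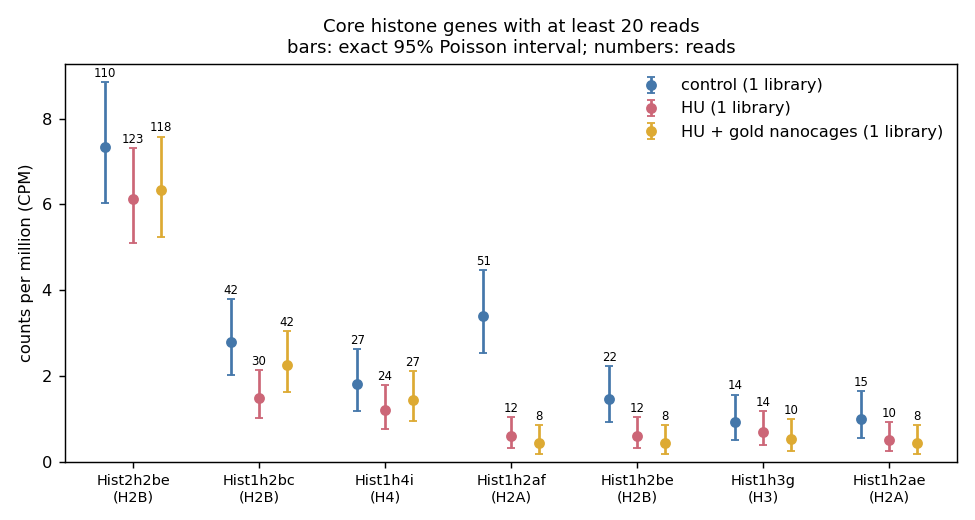
Level in CPM (vertical) of each of the 7 named core histone genes in the control, HU and HU plus nanocage libraries, with exact 95% Poisson intervals as bars and the reads above them. Hist1h2af goes from 3.40 CPM in control to 0.598 and 0.429 CPM in the treated libraries, while the 3 intervals of Hist2h2be overlap.

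HU against control sets the drug-treated cells beside the untreated ones. How the control cells were handled over the 12 hours is not stated, so drug and time in culture cannot be told apart. The members together stood at 24.6 CPM in control (22.2 to 27.3) and 14.7 CPM in HU (13.1 to 16.5), which is 1.67-fold lower (1.43 to 1.96). Fewer cells in S phase and less histone RNA per cell cannot be told apart in such bulk samples. All 4 families had a lower summed level in HU, and the size of the difference was uneven between them.

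H2A was the family furthest apart. Its 14 members gave 85 reads in control and 37 in HU, or 5.67 and 1.84 CPM, which is 3.07-fold lower (2.07 to 4.65). H2B, with 15 members, gave 199 and 178 reads, or 13.3 and 8.87 CPM, 1.5-fold lower (1.22 to 1.84). Both intervals exclude equal levels. H3, with 10 members, gave 37 and 33 reads, or 2.47 and 1.65 CPM, at a ratio of 0.667 (0.404 to 1.10). H4, with 12 members, gave 48 and 47 reads, or 3.20 and 2.34 CPM, at a ratio of 0.732 (0.479 to 1.12). For H3 and H4 a difference was not detectable at this depth.

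The families can also be set against one another, which takes out the scaling of the libraries. The ratio of H2A to H2B reads in HU was 0.487 times that in control (exact conditional 95% interval 0.306 to 0.767). H2A was also lower relative to H3, at 0.490 (0.254 to 0.939), and to H4, at 0.446 (0.245 to 0.806). H2B, H3 and H4 could not be told from each other: H2B against H3 gave 1.00 (0.583 to 1.73), H2B against H4 0.914 (0.568 to 1.47) and H3 against H4 0.911 (0.468 to 1.77).

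The place of H2A rested on Hist1h2af. This gene held 60.0% of the H2A reads in control (exact binomial 95% interval 48.8 to 70.5) and 32.4% in HU (18.0 to 49.8). Without it, H2A gave 34 reads in control and 25 in HU, 1.82-fold lower (1.05 to 3.18), and the ratio of H2A to H2B was 0.822 times that in control (0.451 to 1.48). Without it, H2A against H3 was 0.826 (0.387 to 1.75) and against H4 0.752 (0.370 to 1.52), so no contrast between families was then past counting error. The members as a whole, without Hist1h2af, gave 318 and 283 reads, 1.5-fold lower (1.28 to 1.77).

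H2B also depended on its most read gene, which made the family difference smaller. Hist2h2be held 55.3% of the H2B reads in control and 69.1% in HU. The other H2B members together gave 89 reads in control and 55 in HU, 2.17-fold lower (1.53 to 3.09), against 1.5-fold with it. With the most read member of each family left out, H2A stood at 1.19 times H2B relative to control (0.610 to 2.30), on the other side of 1.

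**Figure D3:**
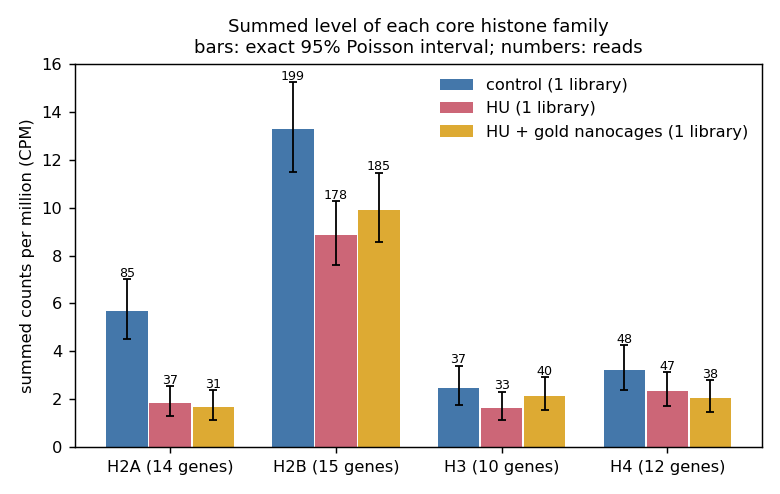
Summed level in CPM (vertical) of the H2A, H2B, H3 and H4 members in the 3 libraries, as bars from 0 with exact 95% Poisson intervals. H2A is at 5.67 CPM in control against 1.84 and 1.66 CPM in the treated libraries, and H2B is the highest family in all 3.

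Of the 7 named members, 5 were at least 1.5-fold lower in HU than in control: Hist1h2bc, Hist1h4i, Hist1h2af, Hist1h2be and Hist1h2ae. Over all genes with at least 20 reads, 4.53% were that much lower, and 11.6% of genes with 20 to 400 reads, a depth range like that of the members, chosen after their reads were seen. None of the 7 was that much higher, against 7.76% and 19.9% of those genes. By the other rule, that the counting interval excludes equality, 3 were lower (Hist1h2bc, Hist1h2af and Hist1h2be). Beside them, 17.6% of all genes with at least 20 reads and 5.77% of genes at that depth were lower. None of the 7 was higher by it, against 17.5% and 9.88%. The median log2 ratio of the 7 was -0.91, beside 0.07 for genes with 20 to 400 reads.

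The 44 members under 20 reads leaned the same way, though none of them alone was past counting error. Together they gave 88 reads in control and 70 in HU, 1.68-fold lower (1.22 to 2.34). By CPM, 29 of the 44 (65.9%) were lower in HU and 13 higher. A member with reads in control alone could only count as lower. Equal reads also counted as lower, because the HU library is larger. Both limits hold for the table genes beside them. Of the 6786 table genes with 1 to 19 reads, 38.9% were lower and 46.8% higher, and their summed ratio was 1.12 (1.09 to 1.15). Hist1h2ae, at 33 reads, is the member just above the limit of 20 reads, and Hist1h2al, a processed pseudogene with 8, 4 and 6 reads, is the one just below.

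The members were also summed by transcript form and by locus. Stem-loop members gave 131 reads in control and 110 in HU, 1.59-fold lower (1.23 to 2.07). The 4 long H2B members without it gave 154 and 154 reads, 1.34-fold lower (1.06 to 1.68). The ratio of one class to the other in HU was 0.840 times that in control (0.590 to 1.19), so the classes did not differ beyond counting error. The 10 members whose annotation stops near the coding sequence gave 71 and 23 reads, 4.13-fold lower (2.55 to 6.93), and that class holds Hist1h2af, with 51 and 12 of those reads.

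By ending, members with a poly(A) signal gave 185 reads in control and 184 in HU, and members without gave 184 and 111. The first set was 1.35-fold lower (1.09 to 1.66) and the second 2.22-fold lower (1.74 to 2.83), and the second also holds Hist1h2af. The Hist1 locus gave 251 and 160 reads, 2.10-fold lower (1.72 to 2.58). The Hist2 locus, most of it Hist2h2be, gave 117 and 130 reads, at a ratio of 0.830 (0.642 to 1.08). Hist3 had 0 and 1 reads and Hist4 had 1 and 4, too few to compare. The Hist1 sum also holds Hist1h2af. Endings and loci were not set against one another as the classes were, so a difference between them was not tested.

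HU plus nanocages against HU asks what the nanocages changed when given with the drug. No family total and no named member differed beyond counting error. All members together stood at 15.8 CPM (14.0 to 17.7) with nanocages and 14.7 CPM with HU alone, a ratio of 1.07 (0.909 to 1.26). Intervals of this width would not show a difference within them, so equal levels are not shown.

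By family, the nanocage library gave 31 H2A, 185 H2B, 40 H3 and 38 H4 reads. The ratios to HU were 0.901 for H2A (0.541 to 1.49), 1.12 for H2B (0.905 to 1.38), 1.30 for H3 (0.802 to 2.13) and 0.870 for H4 (0.552 to 1.36). Each interval includes 1. Without the most read member of each family, an alternative chosen after the data were seen, H2B against H4 stood at 2.53 times its ratio in HU (1.07 to 6.29) and H3 against H4 at 3.25 times (1.20 to 9.24), both past counting error. With all members they stood at 1.28 (0.779 to 2.13) and 1.5 (0.763 to 2.95). Among named members, Hist1h2bc was the one at least 1.5-fold higher, at 1.51 (0.921 to 2.49), so 1 of 7 beside 3.22% of genes with at least 20 reads and 11% of those with 20 to 400. None was 1.5-fold lower, beside 2.77% and 9.5%. The other named ratios ran from 0.717 in Hist1h2af and Hist1h2be to 1.21 in Hist1h4i. By the interval rule 0 were higher and 0 lower, beside 7.73% and 7.03% of genes with at least 20 reads and 4.24% and 2.98% of those with 20 to 400. The stem-loop members stood at 1.01 of HU (0.762 to 1.33) and the long members without a stem-loop at 1.14 (0.908 to 1.43).

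The members under 20 reads did not differ beyond counting error in this comparison. Together they gave 70 reads in HU and 73 with nanocages, a ratio of 1.12 (0.797 to 1.58). Of the 44, 24 were higher with nanocages and 14 lower, and table genes with 1 to 19 reads were higher in 49.9% and lower in 40.7%. Equal reads counted as higher here, because the HU library is the larger.

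**Figure D4:**
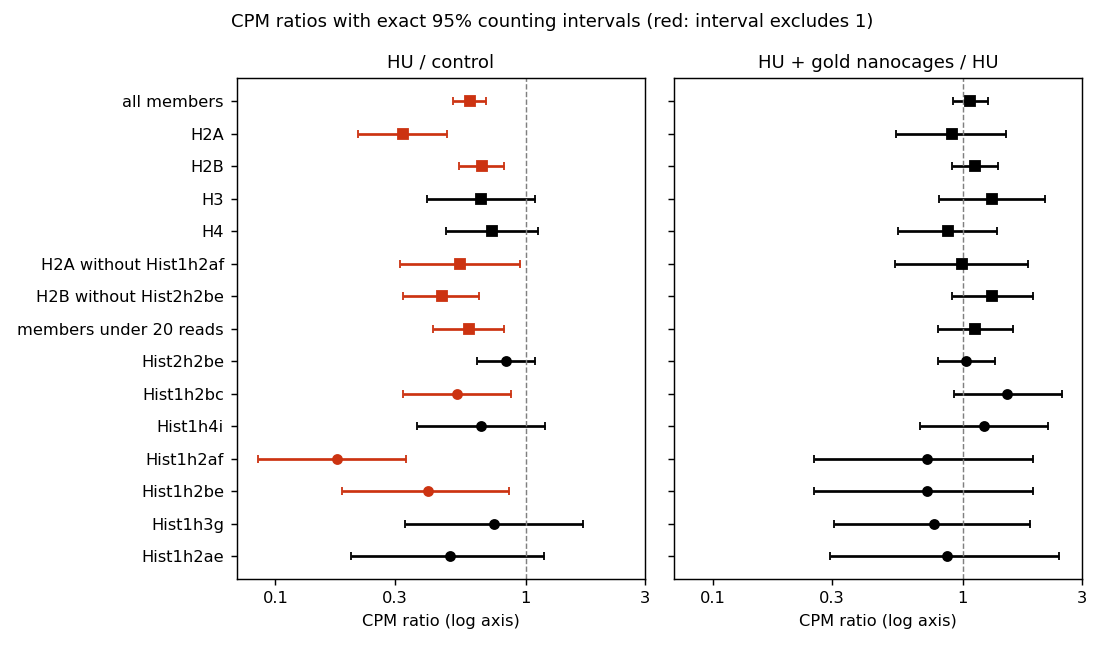
CPM ratios (horizontal, log axis) of all 51 members, the 4 families, H2A without Hist1h2af, H2B without Hist2h2be, the members under 20 reads and the 7 named members, for HU over control (left panel) and HU plus nanocages over HU (right panel), with exact 95% counting intervals as bars. In the left panel the red intervals lie below 1, among them those of H2A, H2B, Hist1h2bc, Hist1h2af and Hist1h2be, and in the right panel every interval includes 1.

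HU plus nanocages against control uses the same control library as HU against control, so the comparisons are not independent of each other. The members together were 1.56-fold below control (1.34 to 1.83). H2A was 3.41-fold lower (2.24 to 5.32) and H2B 1.34-fold lower (1.09 to 1.64). H4 stood at 0.637 of control (0.405 to 0.995) and H3 at 0.869 (0.542 to 1.40). Relative to control, H2A stood at 0.393 times H2B (0.240 to 0.632), 0.339 times H3 (0.176 to 0.647) and 0.463 times H4 (0.244 to 0.869). Hist1h2af held 25.8% of the H2A reads here (11.9 to 44.6), beside 60.0% in control. Without Hist1h2af these 3 calls were lost: H2A stood at 0.728 times H2B (0.394 to 1.33), 0.628 times H3 (0.295 to 1.32) and 0.855 times H4 (0.409 to 1.78).

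At least 1.5-fold below control with nanocages were 4 of the 7 named members (Hist1h2af, Hist1h2be, Hist1h3g and Hist1h2ae), beside 4.54% of genes with at least 20 reads and 11.9% of those with 20 to 400. None was 1.5-fold higher, beside 8.74% of genes with at least 20 reads. By the interval rule 2 were lower, Hist1h2af and Hist1h2be at 3.42-fold (1.47 to 8.88), beside 17.6% and 5.29%. Hist1h2bc, 1.87-fold lower in HU alone, stood at 0.804 of control with nanocages (0.512 to 1.26). Of the 44 members under 20 reads, 29 were lower and 14 higher, beside 37.4% and 47.4% of table genes with 1 to 19 reads. The limits given for this count in HU against control hold here too.

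Hist1h2af and Hist1h3g are neighbours in the Hist1 cluster, on the same strand and 1117 bases apart, and were chosen for a closer look after their values were seen. Their reads were 51 and 14 in control, 12 and 14 in HU, and 8 and 10 with nanocages, so their counts were far apart in the control library and close in the treated ones. The 250 bases before each gene's start are given from RefSeq on GRCm38.p6, plus strand, to show what the start of the named member furthest from control in HU and that of its neighbour hold. Capitals mark the CCAAT box, the letters CCAAT or, on the other strand, ATTGG, which NF-Y binds. The windows are chr13:23533625-23533874 and chr13:23535168-23535417.
Hist1h2af: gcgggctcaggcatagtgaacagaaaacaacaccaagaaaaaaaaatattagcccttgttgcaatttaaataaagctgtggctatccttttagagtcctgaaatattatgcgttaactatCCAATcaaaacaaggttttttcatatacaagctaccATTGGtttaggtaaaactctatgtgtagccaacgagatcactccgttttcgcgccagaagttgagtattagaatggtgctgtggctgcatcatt
Hist1h3g: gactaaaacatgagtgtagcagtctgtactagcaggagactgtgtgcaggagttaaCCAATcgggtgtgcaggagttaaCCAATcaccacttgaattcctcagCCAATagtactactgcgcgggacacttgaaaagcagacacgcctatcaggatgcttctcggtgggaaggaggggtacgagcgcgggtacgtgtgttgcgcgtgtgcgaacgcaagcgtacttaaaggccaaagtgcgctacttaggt

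Both windows hold the CCAAT box, and neither the 300-base window of Hist1h2af nor that of Hist1h3g holds TATAAA or the octamer ATTTGCAT, the OCT1 motif, on either strand. RefSeq promoter windows of 300 bases, 250 before the start and 50 after, were matched by symbol for 44 members, and the first window listed was counted. A CCAAT box was found in 36 of 44 (81.8%), beside 37.4% of 32851 promoters of all genes. By family it was found in 12 of 12 H2A, 13 of 13 H2B, 8 of 8 H3 and 3 of 11 H4 promoters. TATAAA was found in 23 (52.3%), beside 13.6%. The octamer was found in 11 (25.0%), beside 1.74%: 6 of 12 H2A, 5 of 13 H2B and 0 of 19 H3 and H4 promoters. Some H2A and H2B genes lie head to head and share a window, so these counts are not independent of each other. Another window of Hist1h2be, not counted, holds the octamer. Hist1h2ap was counted by the window of Hist1h2ao. Hist2h2bb was counted by the window of that symbol, though GENCODE lists the member's row as a long non-coding RNA. A match describes letters in a window and no binding.

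The variant histones outside the clusters are also made outside S phase, and most of those listed were read more deeply in the same libraries. Of 8 of 9 listed genes at a mean of 1 FPKM or more, 4 were lower in HU than in control past counting error, 1 was higher and 3 were within it, at a median log2 ratio of -0.15. H2afx, the variant phosphorylated at DNA breaks, had 4446 reads in control, 2475 in HU and 2402 with nanocages, or 214.30, 89.16 and 93.09 FPKM. It was 2.40-fold lower in HU (2.29 to 2.53), and its nanocage to HU ratio was 1.04 (0.987 to 1.10). H2afx is thus lower in both treated libraries. Its annotated transcript carries the stem-loop printed above, but runs on for 822 bases after it and ends with a poly(A) signal. Whether its lower level is tied to the stem-loop was not tested.

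Cenpa, the H3 variant of centromeres, stood at 24.14, 13.23 and 13.13 FPKM, with control highest. H3f3b, which encodes the H3.3 variant, stood at 185.62, 154.76 and 160.13 FPKM, 1.20-fold lower in HU. H2afv was 1.19-fold lower. The 4 named variants, picked for the largest ratios of their list, were thus lower by 1.19-fold to 2.40-fold. Of the others, H2afj was 1.15-fold higher (1.04 to 1.27), and H3f3a was within counting error at 1.01 (0.966 to 1.06). The core members together, at far fewer reads, were 1.67-fold lower.

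Factors of histone gene transcription were a list of 13 genes, of which 7 were higher in HU than in control past counting error, 2 lower and 4 within it, at a median log2 ratio of 0.12. Npat, the coactivator of cluster histone genes, stood at 18.47, 18.13 and 19.61 FPKM, within counting error at an HU to control ratio of 0.982 (0.922 to 1.05). The cyclins E, which activate CDK2 upstream of Npat, were higher in HU: Ccne2 by 2.23-fold (2.05 to 2.42), from 14.14 to 31.50 FPKM, and Ccne1 by 1.55-fold. E2f1, a factor of the G1 to S transition, was 1.43-fold higher and Nfyb, a subunit of the CCAAT-binding NF-Y, 1.53-fold higher. The 2 lower genes were Hinfp, at an HU to control ratio of 0.737 (0.671 to 0.809), and Pou2f1, at 0.770 (0.716 to 0.827). With nanocages against HU, 3 of the 13 were higher, 1 lower and 9 within counting error.

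The list for 3' processing and decay had 19 of 20 genes at a mean of 1 FPKM or more. In HU against control 4 were higher, 2 lower and 13 within counting error, at a median log2 ratio of -0.01. Slbp stood at 17.85, 22.80 and 23.48 FPKM, 1.28-fold higher in HU (1.20 to 1.36), in the direction opposite to the member total. With nanocages it stood at 1.03 of HU (0.976 to 1.09). Zcchc6, a terminal uridylyl transferase, was 1.12-fold higher, Exosc10, a nuclease of the nuclear exosome, 1.10-fold higher, and Lsm10, a subunit of the U7 particle that cuts histone RNA, stood at 0.899 (0.716 to 1.13). With nanocages against HU, 0 were higher, 3 lower and 16 within counting error.

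Histone chaperones, which carry histones to and from DNA, were a list of 26 genes. In HU against control 8 were higher, 6 lower and 12 within counting error, at a median log2 ratio of -0.00. Dnajc9, a chaperone that binds H3 and H4, stood at 45.44, 70.15 and 74.55 FPKM, 1.54-fold higher in HU (1.44 to 1.66). Chaf1b, a subunit of the CAF-1 complex that loads histones at the fork, was 1.19-fold higher (1.09 to 1.29). Daxx, a chaperone of H3.3, was 1.44-fold lower, and Hjurp, the chaperone of Cenpa, 1.36-fold lower. With nanocages against HU, 4 were higher, 2 lower and 20 within counting error. Beside these lists, 17.6% of all genes with at least 20 reads were lower and 17.5% higher in HU against control by the same interval rule. For nanocages against HU the shares were 7.03% lower and 7.73% higher. Both backgrounds cover genes of all depths from 20 reads up and are not matched to the depth of the lists.

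**Figure D5:**
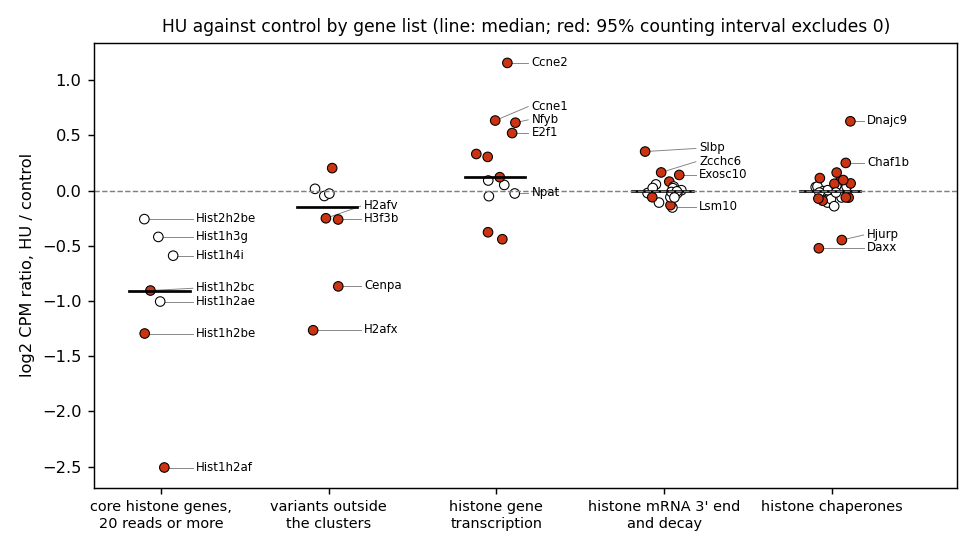
log2 CPM ratio of HU over control (vertical) for the 7 named core histone genes and for 4 lists: variants outside the clusters, histone gene transcription, 3' end and decay, and chaperones. Each point is a gene, a line marks the median, and red points have a 95% counting interval that excludes 0; the 7 core genes have a median of -0.91 and the lists medians from -0.15 to 0.12.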

How the data were processed

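RNA of 3 libraries was compared, 1 per condition. The authors deposited 1 table with read counts per gene and FPKM; the FPKM, per the file headers, are per-length values, and each equals the deposited count over the exonic gene size and the summed count within 0.01. That gene size, an other kind of value, is a length in bases per the file headers. Per the submitters' processing notes, the build was mm10, and HISAT2 2.0.1, DESeq, HTSeq 0.6.1, cutadapt, bcl2fastq 2.17.1.14 and SAMtools 0.1.18 were used. The sources used here give no annotation release, strand setting or poly(A) selection.

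Here counts were divided by each library's summed count over all genes (CPM). Ratios carry exact Clopper-Pearson 95% intervals, levels exact Poisson intervals, and families were compared by exact conditional odds ratios. These cover counting error only, and reads without molecular identifiers are not independent molecules. No p-value was computed, since there is 1 library per condition. Members are named from 20 reads over the 3 libraries, and up to 4 genes per list by the largest ratio at a mean of 1 FPKM, plus Npat and Slbp. Hinfp, Pou2f1, H2afj and H3f3a were named outside that rule. The members and lists were chosen with earlier results of these data known. Among members, 49 of 51 were matched to GENCODE M21 by identifier and 2 by symbol, and 17 share exons with another gene. In 32, the longest transcript equals the table's size. A larger size can come from several transcripts of a gene. Sizes below the longest transcript, as in Hist1h2ae (460 against 704 bases), show that the annotations differ. Scaling by TMM (edgeR 4.0.16), DESeq2 1.42.0 size factors and the upper quartile, other read minimums, folds and pseudocounts, and subsets of members were the alternatives. Analyses used R 4.3.3 and Python 3.11.15 with scipy 1.17.1.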

Additional observations from a re-analysis of the deposited data

How the results depend on the processing

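Of 294 alternative values, 252 kept their direction and size, 40 moved and 2 turned direction. All 132 under another scaling (TMM, DESeq2 size factors or upper quartile) stayed; scaling moved ratios by at most 0.0095 on the log2 scale. No paired analysis was possible because each condition has 1 library, and for the same reason no replicate could be left out. The turns came without the most read member of each family, an alternative chosen after seeing the data: H2A against H2B in HU over control became 1.19 and H2A against H4 in HU plus nanocages over control 1.29. The causes of these shifts were not tested beyond what each alternative removes.

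For HU over control, without the most read members (for H2A, also without Hist1h2af) the ratio was 0.550 for H2A and 0.462 for H2B, and the odds ratio of H2B against H4 0.566. With stem-loop members alone it was 0.605 for H2A and 0.427 for H2B. By the median of log2 FPKM plus 1 it was 0.761 for all members and 0.851 for H2B. Members at least 1.5-fold lower numbered 9 at a read minimum of 10, 3 at 50 and 29 at 1. Lower members numbered 3 at a fold of 2 and 3 on the FPKM plus 1 scale. At a minimum of 1, 7 were higher. That minimum takes in all 51 members, and a single read can set the fold there. The share over all genes was not computed at these settings, so the counts show only how the calls depend on the setting.

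For HU plus nanocages over HU, all members stood at 0.873 and H3 at 0.786 by the median of log2 FPKM plus 0.1, H3 at 0.768 with members of at least 20 reads, and H4 at 0.515 without its most read member. Without the most read member of each family, H2B against H4 became 2.53 (1.07 to 6.29) and H3 against H4 3.25 (1.20 to 9.24), both past counting error. Members higher numbered 3 at a minimum of 10, 16 at 1, and 0 at a fold of 2 and on the FPKM plus 1 scale. Lower were 2 at a minimum of 10 and 12 at 1. Here too the share over all genes was not computed at these settings.

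For HU plus nanocages over control, all members stood at 0.821 by the median of log2 FPKM plus 1. H2A stood at 0.544 without Hist1h2af, its most read member, and 0.574 with stem-loop members; H2B stood at 0.605 and 0.414, and H2A against H2B at 0.899 without the most read members. Members higher numbered 1 at a minimum of 10 and 11 at 1; lower, 7 at 10, 1 at 50, 24 at 1 and 2 on the FPKM plus 1 scale. By the interval rule 1 was lower at 50. These counts likewise have no share over all genes at the same setting.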

Other observations

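Of the 64 core histone symbols, 13 had no read in any library. In the annotation, 5 of these 13 share every 100-base stretch of their transcripts with another annotated transcript, and the median share of unique stretches was 23.8%, beside 62.9% over the members. Whether reads that fit several copies were left out of the counts is not stated in the sources used here, so a symbol at 0 reads is not shown to be silent. The median share of unique stretches was 74.6% in the 7 named members and 58.5% in the 44 under 20 reads.

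The stem-loop was found in 55 genes of the annotation, 42 of them core histone symbols of the table and 13 others. Per length, the members summed to 34.48, 16.75 and 18.01 FPKM from control to HU to nanocages, and the listed variants outside the clusters to 597.04, 430.0 and 434.06 FPKM.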
